A study of Mus musculus with 6 samples.

Results

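Myosins, troponins, tropomyosins, alpha-actinins and myosin-binding proteins were followed in mouse oocytes of the germinal vesicle (GV) stage, before meiosis resumes. The members were chosen by symbol, as the protein-coding genes of the count table named with Myh, Myl, Tnnc, Tnni, Tnnt, Tpm or Actn and a number, or with Mybp. This gave 46 genes of 24421. No count decided whether a gene was a member, but the family was selected on the DKO over SKO fold changes of its genes, which were already known. The values and calls below are therefore a description of these genes, and nothing about the family as a whole was tested.

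Oocytes of 2 genotypes were compared. DKO oocytes were Ring1 -/-, Rnf2 f/f and carried Zp3-cre, a transgene that drives Cre recombinase in growing oocytes, so that Ring1 and Rnf2, the E3 ligase genes at the core of Polycomb repressive complex PRC1, were both targeted. SKO oocytes were Ring1 -/- and Rnf2 f/f without the transgene, so both groups lack Ring1, there was no wild type among them, and what the transgene does by itself and what the loss of Rnf2 does cannot be told apart. Each group held 3 libraries, each made from 15 oocytes of 1 female of about 3 months on a mixed FVB, 129/Sv and C57BL/6J background, with granulosa cells stripped off by pipetting.

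Total counts were 15521975 to 26652745 in DKO libraries and 22990699 to 26437540 in SKO libraries. Rnf2 averaged 36.6 ± 17.5 CPM (read counts put on a common scale of library size) in DKO oocytes and 190 ± 11.8 CPM in SKO oocytes (SD, n = 3 each; log2 fold change -2.38, SE 0.30, edgeR adjusted p = 0.000349). Ring1 had 19 counts in all DKO libraries together and 10 in all SKO libraries. All 12 oocyte marker genes were detected and tested, and their summed level was 12000 to 15000 CPM in DKO libraries and 19900 to 20900 CPM in SKO libraries. Of the 12, edgeR called 6 lower, beside 7.41% of all tested genes and 17.1% of those at 50 CPM or more in SKO oocytes. The highest of the markers, Gdf9, averaged 4000 ± 1480 CPM in DKO oocytes and 5660 ± 648 CPM in SKO oocytes. Its groups overlapped and it was not called (edgeR adjusted p = 0.164). Bmp15 averaged 2240 ± 151 CPM in DKO and 3590 ± 65.9 CPM in SKO oocytes and was called lower (adjusted p = 0.00684). Nlrp5 averaged 1860 ± 227 CPM in DKO and 2330 ± 267 CPM in SKO oocytes, with overlapping groups, and was not called (adjusted p = 0.171). Of 14845 genes tested, 24.7% were called, 17.3% higher and 7.41% lower in DKO (edgeR quasi-likelihood test, adjusted p under 0.05). Log2 CPM correlated across genes, which are not independent replicates, at 0.942 to 0.962 among DKO libraries and 0.973 to 0.977 among SKO libraries, so the DKO libraries differed more from each other.

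Myosins are motors of paired heavy chains, each heavy chain carrying an essential and a regulatory light chain, that pull on actin filaments. In striated muscle, tropomyosin and the troponins gate that pull by calcium, alpha-actinin anchors the actin filaments, and myosin-binding protein C decorates the thick filament. Nonmuscle cells, oocytes included, build contractile networks from nonmuscle myosins, tropomyosins and alpha-actinins without troponin, and the oocyte uses its cortical actomyosin in spindle positioning and polar body extrusion. From textbook knowledge the members were sorted into 31 muscle genes, 7 nonmuscle genes and 8 shared genes that serve both through isoforms or whose place is unclear.

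Promoter sequence is a property of the members that neither the symbols nor the counts used. The RefSeq promoter table (build GRCm38.p6, 250 bases before to 50 after a gene's start, the first start listed for each gene) held 42 of the 46 members. Actn3, Myh11, Tnni2 and Tnnt3 were not in it. The bases before the start are shown for 3 striated muscle heavy chain genes that were higher in DKO oocytes and for Myh9, a nonmuscle heavy chain gene. Capitals mark each CG dinucleotide and each TATAAA on either strand, where TTTATA is the reverse-strand form. Myh3 lies at chr11:67078050-67078299 on the plus strand, Myh4 at chr11:67237562-67237811 on the plus strand, Myh7b at chr2:155610993-155611242 on the plus strand and Myh9 at chr15:77842176-77842425 on the minus strand.
Myh3: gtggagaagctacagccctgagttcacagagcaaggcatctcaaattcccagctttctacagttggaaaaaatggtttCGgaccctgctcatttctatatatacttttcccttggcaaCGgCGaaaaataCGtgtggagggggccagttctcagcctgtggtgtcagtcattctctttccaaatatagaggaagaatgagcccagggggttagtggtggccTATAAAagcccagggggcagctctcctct
Myh4: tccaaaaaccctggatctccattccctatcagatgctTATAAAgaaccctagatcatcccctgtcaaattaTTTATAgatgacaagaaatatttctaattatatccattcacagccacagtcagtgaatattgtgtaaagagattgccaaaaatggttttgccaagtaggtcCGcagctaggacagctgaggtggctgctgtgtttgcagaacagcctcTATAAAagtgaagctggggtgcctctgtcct
Myh7b: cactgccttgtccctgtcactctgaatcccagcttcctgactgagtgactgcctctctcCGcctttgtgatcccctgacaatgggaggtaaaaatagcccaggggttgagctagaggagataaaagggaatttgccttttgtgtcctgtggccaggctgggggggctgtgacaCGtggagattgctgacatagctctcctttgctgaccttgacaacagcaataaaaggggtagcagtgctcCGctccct
Myh9: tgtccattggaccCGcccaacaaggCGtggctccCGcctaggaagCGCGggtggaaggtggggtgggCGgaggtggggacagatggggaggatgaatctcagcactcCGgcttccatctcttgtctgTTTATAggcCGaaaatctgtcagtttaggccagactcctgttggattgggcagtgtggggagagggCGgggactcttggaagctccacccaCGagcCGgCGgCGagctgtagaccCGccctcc
The 3 muscle stretches hold 4, 1 and 3 CG dinucleotides in the order printed, and the Myh9 stretch holds 14. Over whole windows the median was 5 CG dinucleotides in the 27 muscle promoters (0 to 25), 24 in the 7 nonmuscle promoters (18 to 35) and 20 in the 8 shared promoters (3 to 31), with 7 in all 27025 promoters of the table. The 8 muscle genes called higher had a median of 4, near the 5 of the 19 other muscle genes. All genes called higher in DKO oocytes had a median of 18 over 1941 promoters, and all tested genes had 20 over 11761 promoters. The 10 muscle heavy chain promoters were at the low end, with a median of 3.5 and a highest count of 9. TATAAA was found on either strand in 7 of these 10, in 10 of all 27 muscle promoters (37%), in 1 of 7 nonmuscle promoters and in 14.2% of all promoters of this length. The E-box letters CANNTG, bound by basic helix-loop-helix factors, were in 24 of 27 muscle promoters, in 7 of 7 nonmuscle and 8 of 8 shared promoters, and in 72.1% of all promoters on either strand. They were in 6 of the 8 muscle genes called higher. The CArG box, the serum response factor motif, was in 4 of 27 muscle promoters (14.8%), in 1 of 8 shared promoters (12.5%), in 0 of 7 nonmuscle promoters and in 1.57% of all promoters. It was in 1 of the 8 muscle genes called higher and in 3 of the 19 other muscle genes. The MEF2 box was in 1 muscle promoter, that of Mybpc3, and in 0.566% of all. These matches describe letters in a window and do not show that a factor bound there.

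**Figure D1:**
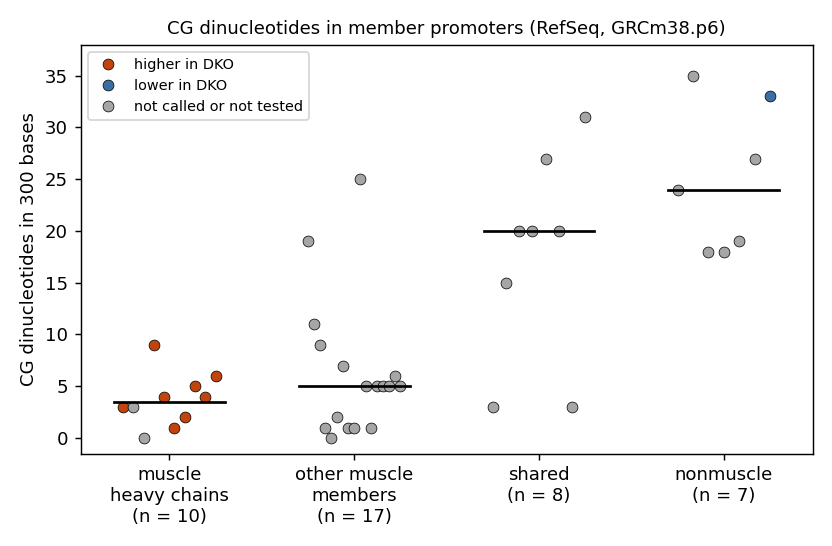
CG dinucleotides (y axis, count in the 300-base RefSeq promoter window) for the 42 members with a promoter, by class; each point is 1 gene, lines are medians, and colours give the call in DKO over SKO oocytes. The 10 muscle heavy chains shown lie between 0 and 9, all below the nonmuscle members at 18 to 35. Myh11 and Actn3 are among the muscle members without a promoter.

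Striated muscle heavy chain genes were higher in DKO oocytes. Of 10 such genes, 9 were tested and 8 rose, by 1.72 to 5.89 on the log2 scale, against 17.3% of all tested genes that were called higher. That share was 32.6% among tested genes under 5 CPM in SKO oocytes, where 7 of the 8 lie. The members called higher were Myh1, Myh2, Myh3, Myh4, Myh6, Myh7, Myh7b and Myh8. Of these, Myh1, Myh4, Myh6 and Myh8 passed the filter on low counts only through the DKO libraries and so had to be higher there. The other tested genes, Myh2, Myh3, Myh7, Myh7b and Myh15, passed it on the SKO libraries alone and could have gone either way. None of them was called lower by edgeR or by DESeq2, and none had a negative change with an unadjusted p under 0.05. The summed level of the 10 genes was 108, 72.4 and 104 CPM in the DKO libraries, against 22.6, 21.3 and 20.4 CPM in the SKO libraries. Every DKO library therefore held a larger share of heavy chain RNA of this kind than any SKO library.

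Of these genes, 6 stand in a row on chromosome 11, in the order Myh3, Myh2, Myh1, Myh4, Myh8 and Myh13, over 293 kb. Together they measured 79.1, 47.9 and 73.1 CPM in DKO libraries, against 16.1, 16.5 and 14.2 CPM in SKO libraries. Myh2, the heavy chain of fast oxidative fibres (chromosome 11, 67171027 to 67197517, GRCm38), had the highest level of the row per base of transcript. It measured 49.4, 32.4 and 47.3 CPM in DKO libraries, against 13.4, 15.2 and 10.5 CPM in SKO libraries (log2 fold change 1.72, SE 0.25, edgeR adjusted p = 0.000858). All DKO values lay above all SKO values, and this was the smallest of the 8 rises.

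Myh3, the embryonic skeletal heavy chain (67078273 to 67102291), measured 16.9, 8.41 and 16 CPM in DKO libraries, against 2.25, 0.691 and 3.12 CPM in SKO libraries (2.76, SE 0.52, adjusted p = 0.00361). DKO replicate 2 was the lowest of its group for both Myh3 and Myh2. Myh4, the heavy chain of the fastest mouse fibres (67237812 to 67260447), measured 9.23, 3.10 and 6.21 CPM in DKO libraries, against 0, 0.0461 and 0.247 CPM in SKO libraries (5.89, SE 0.85, adjusted p = 0.000835). The SKO libraries held 0, 1 and 6 counts of it, so the size of the fold is poorly fixed, and it was 7.81 without SKO replicate 3.

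Myh1, another fast skeletal heavy chain (67200102 to 67224577), measured 1.88, 2.68 and 3.11 CPM in DKO libraries, against 0.403, 0.461 and 0.288 CPM in SKO libraries (2.72, SE 0.54, adjusted p = 0.00476). Myh8, the perinatal heavy chain (67277124 to 67308634), had 26, 17 and 11 counts in DKO libraries, against 2, 2 and 0 in SKO libraries (3.85, SE 0.97, adjusted p = 0.0162). This is the least firm of the 8 calls: its adjusted p was 0.0718 without DKO replicate 1 and 0.0547, 0.0513 and 0.0625 without SKO replicates 1, 2 and 3. Myh13, the extraocular muscle heavy chain, had 2, 11 and 3 counts in DKO libraries and 0 in each SKO library, and was below the filter for testing. Set against an assumed 3 counts over the SKO group, its pooled DKO level was 5.85-fold higher, a value that leaves out the spread between DKO libraries.

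The cardiac pair and Myh7b rose as well. Myh7, the heavy chain of ventricle and slow skeletal fibres (chromosome 14, 54970684 to 54994626), measured 9.97, 9.72 and 10.6 CPM in DKO libraries, against 1.29, 1.06 and 1.97 CPM in SKO libraries (2.80, SE 0.37, adjusted p = 0.000444). Its DKO values had the smallest SD relative to their mean among the 8 risen genes. Its neighbour Myh6, the alpha-cardiac heavy chain (54941921 to 54968017), measured 1.54, 1.17 and 2.60 CPM in DKO libraries, against 0.121, 0.0461 and 0.164 CPM in SKO libraries (3.93, SE 0.72, adjusted p = 0.00326). Myh7b, a slow-tonic heavy chain gene (chromosome 2, 155611243 to 155634307), had the smallest adjusted p of all members. It measured 12.3, 7.66 and 12.0 CPM in DKO libraries, against 0.765, 0.691 and 0.493 CPM in SKO libraries (4.02, SE 0.40, adjusted p = 8.74e-05).

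Myh15, the remaining striated heavy chain gene, was not called. It measured 4.90, 5.92 and 6.14 CPM in DKO libraries, against 4.35, 2.99 and 3.62 CPM in SKO libraries (0.63, SE 0.34, adjusted p = 0.208). The groups did not overlap, which was so for 44.3% of all tested genes.

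**Figure D2:**
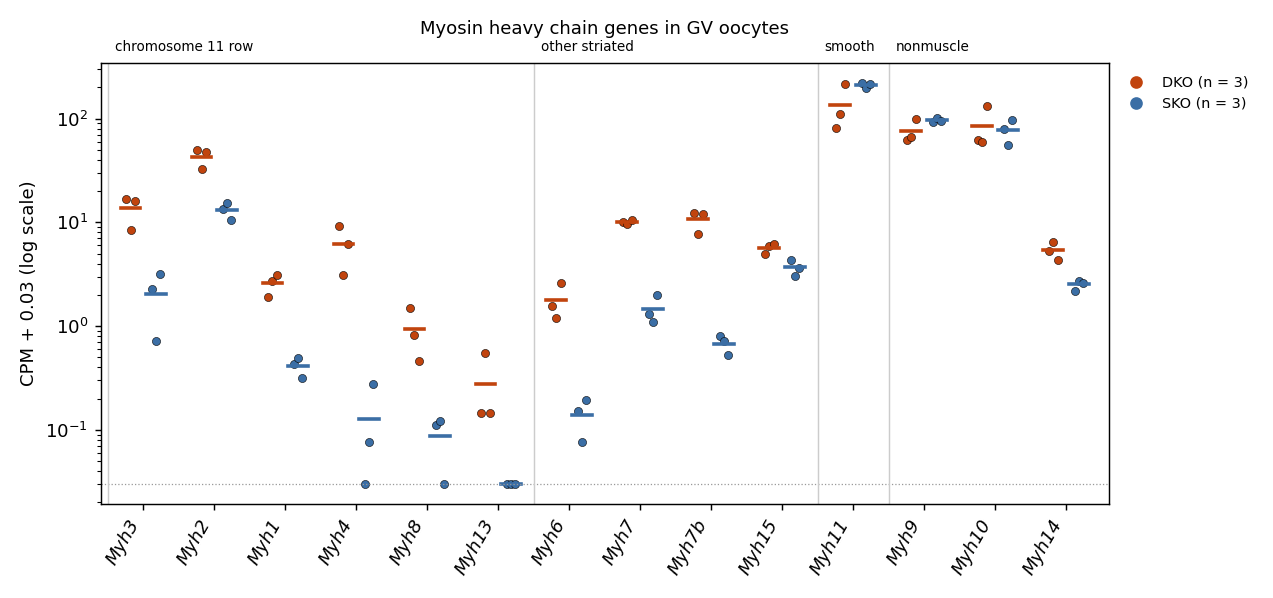
Level of the 14 myosin heavy chain genes in each library (y axis, CPM + 0.03 on a log scale); points are libraries, lines are means, DKO in red and SKO in blue, and the dotted line marks 0 CPM. For Myh3, Myh2, Myh1, Myh4, Myh8, Myh6, Myh7 and Myh7b every DKO library lies above every SKO library, while Myh11, Myh9 and Myh10 overlap between the groups. Of all tested genes, 44.3% did not overlap, in either direction.

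Heavy chain genes of this kind are close copies, and the sources used here do not say how reads with several alignments were counted. Of the stretches of 50 bases in the GENCODE transcripts of Myh1, 25.4% also occur in another member. The share was 22.9% for Myh2, 18.9% for Myh4, 11.1% for Myh8, 8.26% for Myh13, 4.76% for Myh3, 20.2% for Myh6 and 15.6% for Myh7. The split between these paralogs is uncertain to that extent, while the sums over the chromosome 11 row and over Myh6 and Myh7 (11.5, 10.9 and 13.2 CPM in DKO libraries, against 1.41, 1.11 and 2.14 CPM in SKO libraries) depend less on how such reads were divided. Myh7b shared no such stretch with any other annotated gene. Reads of overlapping genes on the other strand cannot be told apart without strand, and exons of Myh7b overlap those of Trpc4ap by 37 bases. Trpc4ap had a mean of 108 CPM in DKO oocytes and 146 CPM in SKO oocytes, opposite in sign to the change of Myh7b (-0.43, adjusted p = 0.158). Exons of Myh7 overlap 484 bases of the antisense RNA gene Mhrt, which had a mean of 0.691 CPM in DKO oocytes and 0.214 CPM in SKO oocytes. Other risen genes also overlap exons on the other strand: Myh1 with Myhas by 515 bases, Myh2 with 9430073C21Rik by 237 and Myh6 with Gm49130 by 114. Myh7 further overlaps Gm31251 by 523 bases and Gm29015 by 142. These overlapping genes, apart from Mhrt, are not in the count table, so their levels are not known.

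None of the nearest tested neighbours of these genes passed the test. The 3 nearest tested protein-coding genes on each side of the chromosome 11 row, of Myh6 and Myh7, and of Myh7b make 18 genes. Of these, 0 were called by edgeR and 0 by DESeq2, where edgeR called 24.7% of all tested genes. The median log2 fold change of the 18 was 0.24, with 0.04 for all tested genes. At an unadjusted p under 0.05, 1 was higher, Slc22a17 beside Myh6. It averaged 1.59 ± 0.767 CPM in DKO and 0.493 ± 0.321 CPM in SKO oocytes (log2 fold change 1.66, edgeR adjusted p = 0.12). Acss2, beside Myh7b, averaged 2.27 ± 0.324 CPM in DKO and 0.724 ± 0.874 CPM in SKO oocytes (1.63, adjusted p = 0.158). Beside the chromosome 11 row, Sco1, a cytochrome oxidase assembly gene at 10.8 kb, averaged 2.74 ± 1.59 CPM in DKO and 2.06 ± 0.598 CPM in SKO oocytes (log2 fold change 0.40, adjusted p = 0.628). On the other side the nearest tested gene, Gas7 at 81.7 kb, averaged 1.14 ± 0.0931 CPM in DKO and 1.0 ± 0.494 CPM in SKO oocytes (0.18, adjusted p = 0.848). Farther out, Usp43, a deubiquitinase gene at 483 kb, averaged 43.0 ± 9.08 CPM in DKO and 38.3 ± 7.97 CPM in SKO oocytes (0.17, adjusted p = 0.643). Ngdn, the nearest tested gene past Myh7, averaged 17.7 ± 1.72 CPM in DKO and 24.2 ± 1.92 CPM in SKO oocytes (-0.46, adjusted p = 0.149). A p above the threshold does not show that the neighbours were equal between genotypes.

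The muscle partners of the heavy chains, apart from Actn3 and Tnni3, were at no more than 1.24 CPM in any library. Of the other 20 muscle members, only 4 had enough counts to be tested, and none of these 4 was called in either direction by edgeR or DESeq2, or had an unadjusted p under 0.05. Among all tested genes, edgeR called 24.7%. The 8 troponin genes summed to 8.6, 5.03 and 6.21 CPM in DKO libraries, against 9.10, 7.09 and 6.00 CPM in SKO libraries. Most of that was Tnni3, the cardiac inhibitory subunit, at 7.12, 4.04 and 5.05 CPM in DKO libraries, against 8.41, 6.36 and 5.59 CPM in SKO libraries (log2 fold change -0.33, SE 0.35, adjusted p = 0.529). The groups overlapped, and no other troponin gene exceeded 1 CPM in any library. Per kilobase, Tnni3 was at 6.56 ± 1.91 CPM in DKO and 8.24 ± 1.77 CPM in SKO oocytes, above each of the risen heavy chains in SKO oocytes.

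Tnnt1, the slow skeletal tropomyosin-binding subunit, had 11, 9 and 10 counts in DKO libraries, against 1, 13 and 9 in SKO libraries (0.51, SE 0.85, adjusted p = 0.701). Tnnc2, the fast calcium-binding subunit, had 8, 5 and 0 counts in DKO libraries, against 16, 3 and 1 in SKO libraries, and its exons share 592 bases with Ube2c, which is on the other strand at 136 CPM in DKO and 170 CPM in SKO oocytes. Tnnt2, the cardiac tropomyosin-binding subunit, had 4, 5 and 14 counts in DKO libraries and 0 in each SKO library. Set against an assumed 3 counts over the SKO group, its pooled DKO level was 8.41-fold higher, again without the spread between DKO libraries. Tnnt2 was below the filter, and with no filter it was called higher (5.94, SE 1.89, adjusted p = 0.0338). Tnnc1, the cardiac and slow calcium-binding subunit, had 0 counts in all 6 libraries, and Tnni1, Tnni2 and Tnnt3 had at most 6 counts in any library.

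The 5 muscle light chain genes summed to 1.59, 1.08 and 0.738 CPM in DKO libraries, against 0.966, 1.29 and 1.60 CPM in SKO libraries. Myl4, the atrial and embryonic essential light chain, was the only one tested, with 11, 18 and 8 counts in DKO libraries, against 19, 27 and 27 in SKO libraries (-0.81, SE 0.62, adjusted p = 0.372). Myl2, the ventricular regulatory light chain, had 6, 3 and 9 counts in DKO libraries, against 4, 1 and 10 in SKO libraries. Myl1 had no count in any library, and Myl3 had 1 count in all. Myl7, the atrial regulatory light chain, had 11, 2 and 2 counts in DKO libraries, against 0, 0 and 2 in SKO libraries, with DKO replicate 1 holding most of them and the groups overlapping. The 5 myosin-binding protein genes summed to 0.513, 0.611 and 0.194 CPM in DKO libraries, against 0.242, 0.553 and 0.247 CPM in SKO libraries, and none was tested. The sums of both sets overlapped between the genotypes.

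**Figure D3:**
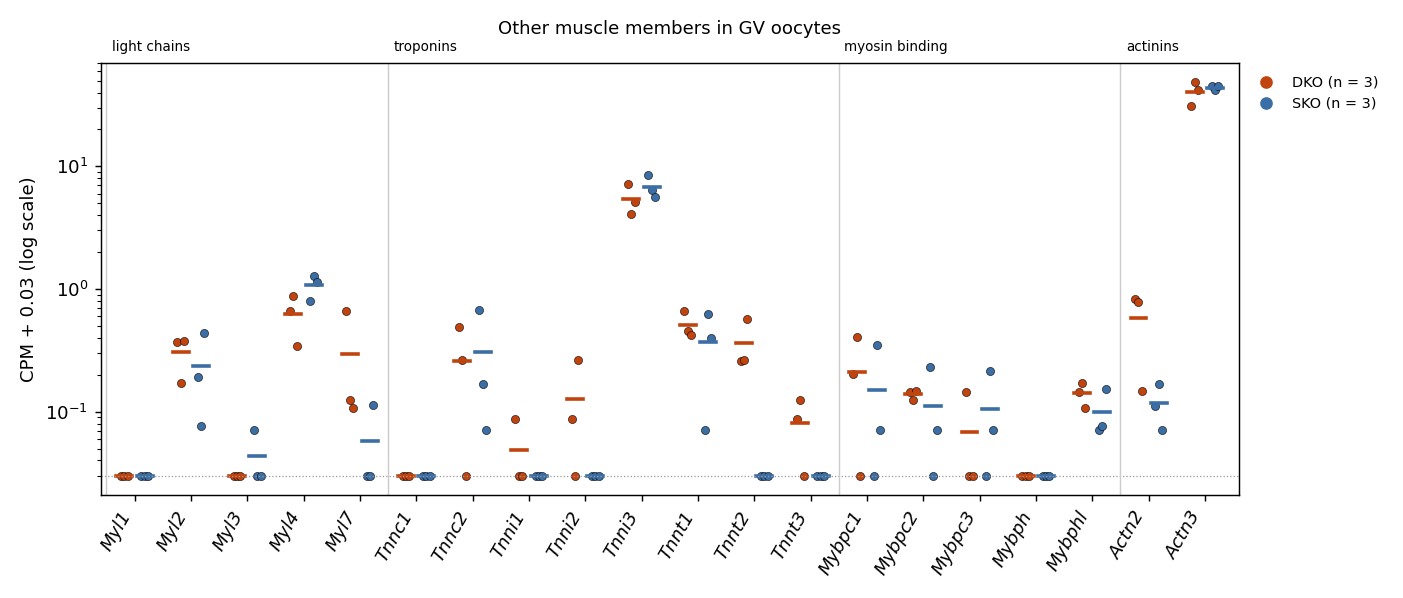
Level of the 20 muscle members other than heavy chains in each library (y axis, CPM + 0.03 on a log scale); points are libraries, lines are means, DKO in red and SKO in blue, and the dotted line marks 0 CPM. Actn3 and Tnni3 are the genes above 2 CPM, and their groups overlap.

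Actn3 and Myh11 had many counts in both genotypes. Actn3, the alpha-actinin of fast skeletal fibres, measured 30.9, 48.4 and 41.7 CPM in DKO libraries, against 44.8, 41.7 and 45.0 CPM in SKO libraries (log2 fold change -0.12, SE 0.21, adjusted p = 0.717). Its cardiac and skeletal paralog Actn2 had 14, 16 and 3 counts in DKO libraries, against 2, 3 and 1 in SKO libraries, and was below the filter. Without DKO replicate 3, the library with the fewest counts of it in its group, Actn2 passed the filter and was called higher (3.09, SE 0.86, adjusted p = 0.0285). Myh11, the smooth muscle heavy chain, had the highest level per base of transcript among the heavy chains in SKO oocytes. It measured 81.9, 112 and 216 CPM in DKO libraries, against 222, 196 and 215 CPM in SKO libraries (-0.63, SE 0.30, adjusted p = 0.159). DKO replicate 3 was at the SKO level and the other DKO libraries were below it, so that without DKO replicate 3 Myh11 was called lower (-1.13, adjusted p = 0.00241).

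Myh11 is also a marker of smooth muscle and pericytes, and in pooled oocytes fewer such cells and less RNA per cell cannot be told apart. The 10 markers of that list summed to 93.9 to 235 CPM in DKO libraries and 237 to 270 CPM in SKO libraries, most of it Myh11 itself, and none was at 0 in all libraries. Of 6 tested, Mcam rose and Cnn1, an actin-binding calponin of smooth muscle, fell to 12.5 ± 4.72 CPM in DKO oocytes, against 40.9 ± 6.78 CPM in SKO oocytes (-1.71, SE 0.31, adjusted p = 0.00283). Abcc9 averaged 2.69 ± 3.22 CPM in DKO and 2.82 ± 2.29 CPM in SKO oocytes. The part of such cells in the values of Myh11 was not tested.

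The nonmuscle members had counts enough to be tested in both genotypes. All 7 were tested, and edgeR called 1 lower and 0 higher, where 7.41% of all tested genes were lower and 17.3% higher. The groups did not overlap for 4 of the 7, which was so for 44.3% of all tested genes. The median log2 fold change of the 7 was -0.35, with 0.04 for all tested genes. By DESeq2, 1 was higher and 1 lower, and at an unadjusted p under 0.05, Myh14 was higher and Actn1, Myl12a and Myl12b were lower. The nonmuscle genes summed to 281, 313 and 451 CPM in DKO libraries, against 423, 409 and 450 CPM in SKO libraries. DKO replicate 3 lay at the SKO level and DKO replicates 1 and 2 below it, and without DKO replicate 3, 4 nonmuscle members were called lower (Actn1, Actn4, Myh9 and Myl12b) and 1 higher (Myh14).

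Myh9, the heavy chain of nonmuscle myosin IIA, measured 61.9, 66.5 and 99.5 CPM in DKO libraries, against 92.1, 101 and 95.7 CPM in SKO libraries (-0.34, SE 0.21, adjusted p = 0.258). Myh10, the heavy chain of nonmuscle myosin IIB, measured 62.0, 59.2 and 133 CPM in DKO libraries, against 79.9, 55.7 and 96.9 CPM in SKO libraries (0.13, SE 0.32, adjusted p = 0.8). Groups overlapped for both genes. Myh14, the heavy chain of nonmuscle myosin IIC, was scarce, at 5.30, 6.48 and 4.27 CPM in DKO libraries, against 2.17, 2.72 and 2.59 CPM in SKO libraries (1.10, SE 0.37, adjusted p = 0.0513). Its groups did not overlap and its adjusted p was just above the threshold, ranging from 0.02 to 0.157 over the alternative settings, with 0.0336 without DKO replicate 3.

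Of the regulatory light chain genes Myl12a and Myl12b, which encode the chains phosphorylated to switch nonmuscle myosin on, Myl12b fell. Myl12b measured 3.19, 3.43 and 3.77 CPM in DKO libraries, against 7.20, 6.22 and 7.85 CPM in SKO libraries (-1.03, SE 0.32, adjusted p = 0.0399). Its call was lost in 7 of 12 alternative settings, and its adjusted p was 0.0728 and 0.0684 without DKO replicates 1 and 2, and 0.105, 0.0855 and 0.127 without SKO replicates 1, 2 and 3. Myl12a measured 35.3, 26.0 and 15.5 CPM in DKO libraries, against 41.7, 38.6 and 41.0 CPM in SKO libraries (-0.66, SE 0.28, adjusted p = 0.114), and it was called lower without DKO replicate 1 (adjusted p = 0.028). DKO and SKO values did not overlap for either gene. The annotated exons of these neighbours on chromosome 17 overlap by 462 bases and 17.6% of the 50-base stretches of Myl12b occur in Myl12a, so their split is uncertain.

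Actn4 and Actn1 encode the alpha-actinins of stress fibres and adhesions. Actn4 measured 86.1, 108 and 141 CPM in DKO libraries, against 141, 148 and 138 CPM in SKO libraries (-0.35, SE 0.20, adjusted p = 0.224). Actn1 measured 27.5, 43.0 and 53.7 CPM in DKO libraries, against 58.8, 57.2 and 67.3 CPM in SKO libraries (-0.56, SE 0.24, adjusted p = 0.123). The groups overlapped for Actn4 and did not for Actn1. Without DKO replicate 3 both were called lower, Actn4 with an adjusted p of 0.0305 and Actn1 with 0.0307.

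The shared members did not pass the test in either direction. Of 8, 6 were tested, 0 were called by edgeR and 0 by DESeq2, where edgeR called 24.7% of all tested genes. The groups did not overlap for 1 of the 6, Myl6, which was so for 44.3% of all tested genes. At an unadjusted p under 0.05 Tpm2 was higher and Myl6 lower. Tpm1, the tropomyosin gene with muscle and nonmuscle isoforms, measured 36.2, 35.0 and 30.7 CPM in DKO libraries, against 32.4, 25.9 and 25.4 CPM in SKO libraries (0.28, SE 0.20, adjusted p = 0.341). Tpm2, the beta-tropomyosin gene, measured 9.28, 6.15 and 9.71 CPM in DKO libraries, against 7.16, 2.99 and 2.34 CPM in SKO libraries (1.01, SE 0.45, adjusted p = 0.131), and without SKO replicate 1 it was called higher (1.63, adjusted p = 0.0291). Groups overlapped for all 4 tropomyosin genes.

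Tpm3 measured 9.28, 14.6 and 12.6 CPM in DKO libraries, against 11.5, 11.9 and 12.2 CPM in SKO libraries (0.04, SE 0.27). Tpm4 measured 16.1, 11.3 and 18.6 CPM in DKO libraries, against 14.6, 4.19 and 16.5 CPM in SKO libraries (0.38, SE 0.44), where SKO replicate 2 was the lowest of the 6 libraries. Similar sequences elsewhere make both levels uncertain: 23.2% of the 50-base stretches of Tpm3 and 11.7% of those of Tpm4 occur in genes outside the family. Isoforms of the tropomyosins are not separated in counts per gene.

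The shared light chains were scarce. Myl6, the main essential light chain of smooth muscle and nonmuscle myosin, had 4, 11 and 4 counts in DKO libraries, against 37, 21 and 21 in SKO libraries (-1.87, SE 0.68, adjusted p = 0.0713). The groups did not overlap, but 8.38% of its 50-base stretches occur outside the family, in Gm5526 above all, so its low level is uncertain. Myl6b, another essential light chain, had 13, 15 and 7 counts in DKO libraries, against 8, 17 and 30 in SKO libraries (-0.46, SE 0.71, adjusted p = 0.68). Myl9, the smooth muscle regulatory light chain, had 5, 13 and 0 counts in DKO libraries, against 1, 0 and 0 in SKO libraries, so the groups overlapped. Myl10 had 1, 2 and 0 counts in DKO libraries, against 2, 6 and 0 in SKO libraries.

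**Figure D4:**
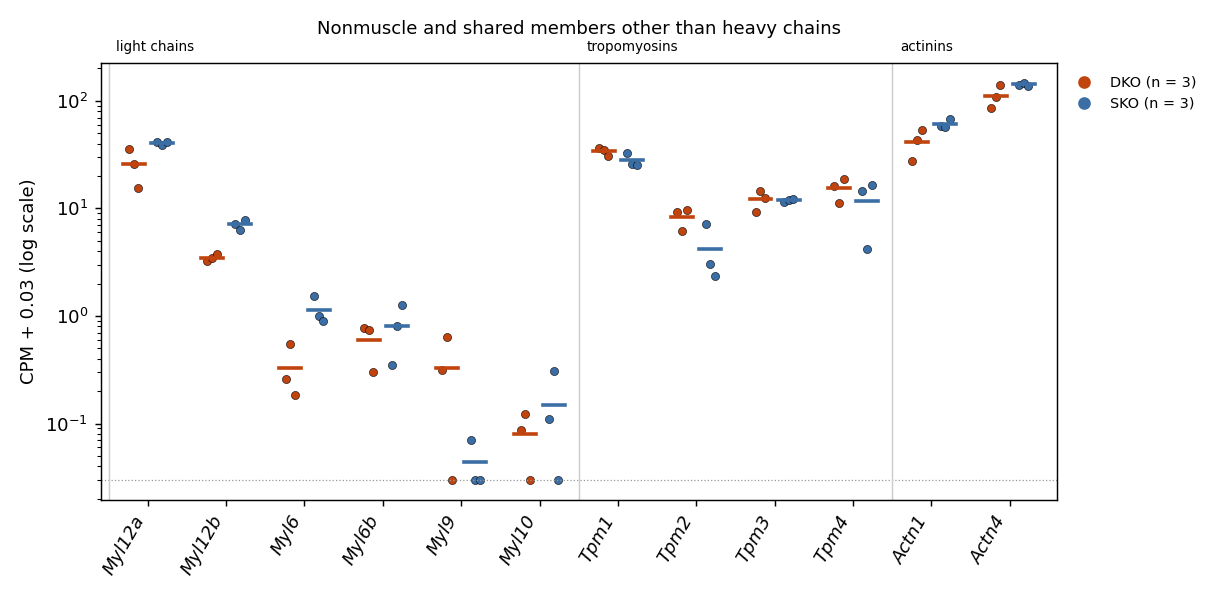
Level of the nonmuscle and shared members other than heavy chains in each library (y axis, CPM + 0.03 on a log scale); points are libraries, lines are means, DKO in red and SKO in blue, and the dotted line marks 0 CPM. Myl12b, Myl12a, Myl6 and Actn1 are lower in every DKO library than in any SKO library, and the 4 tropomyosins overlap between the groups. Of all tested genes, 44.3% did not overlap between the groups, in either direction.

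Levels of different genes were compared per kilobase of the gene length given in the deposited table. On that scale Actn4 was the most abundant member, at 29.3 ± 7.26 CPM per kilobase in DKO and 37.4 ± 1.33 in SKO oocytes. By group mean, Myh11 followed, at 17.9 ± 9.23 CPM per kilobase in DKO and 27.6 ± 1.77 in SKO oocytes, then Myl12a, at 14.4 ± 5.57 in DKO and 22.7 ± 0.915 in SKO oocytes. That order did not hold in every DKO library: in DKO replicate 1, Myl12a was at 19.8 and Myh11 at 10.7 CPM per kilobase. Actn3, at 13.9 ± 3.05 CPM per kilobase in DKO and 15.1 ± 0.632 in SKO oocytes, and Actn1, at 10.2 ± 3.24 in DKO and 15.0 ± 1.33 in SKO oocytes, had overlapping values in each genotype. Within each DKO library, Actn3 was above Actn1. Myh2, the highest of the risen heavy chains, reached 5.93 ± 1.28 CPM per kilobase in DKO oocytes, against 1.80 ± 0.328 in SKO oocytes, and so came within the spread of Myh9, at 7.30 ± 1.97 in DKO and 9.25 ± 0.424 in SKO oocytes. The other risen heavy chains stayed at 0.076 to 2.25 CPM per kilobase in DKO oocytes.

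**Figure D5:**
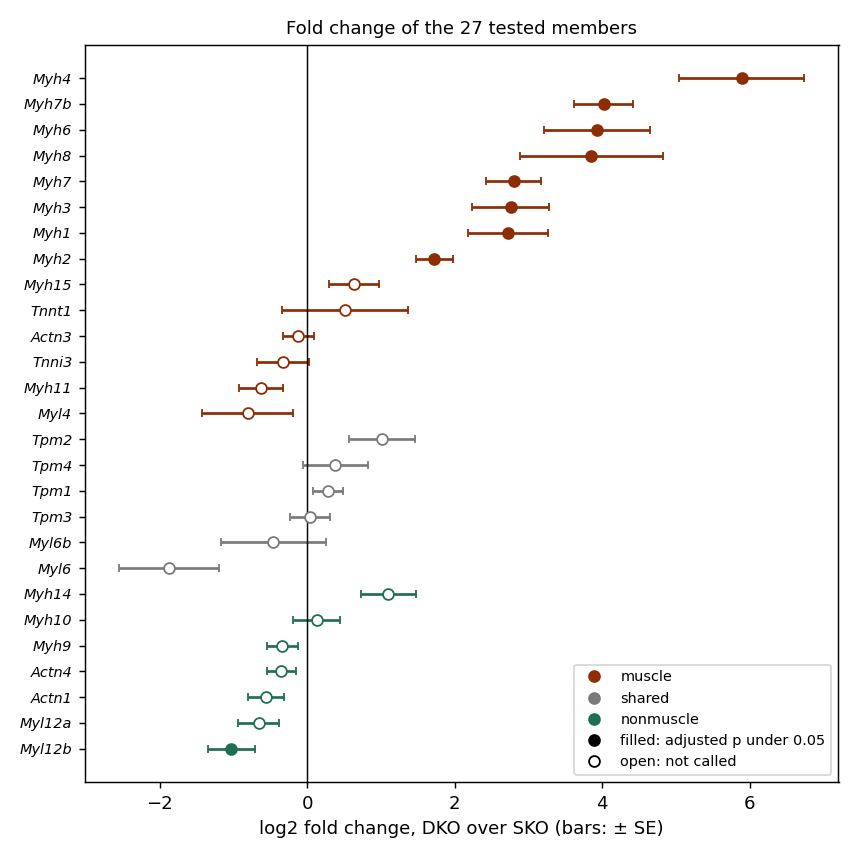
Log2 fold change of DKO over SKO oocytes (x axis, bars ± SE) for the 27 tested members, by class; filled points have an edgeR adjusted p under 0.05. The 8 filled muscle points at 1.72 to 5.89 are all heavy chains, and Myl12b at -1.03 is the only filled nonmuscle point.

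Over all classes, 27 of the 46 members passed the filter on low counts, and the 19 others had 0 to 39 counts over the 6 libraries. The median log2 fold change of the 14 tested muscle members was 2.22, that of the 6 tested shared members 0.16, and that of all tested genes 0.04. For the 9 muscle members that pass the filter on the SKO libraries alone it was 0.63, where all genes that do so had -0.06, and for the 4 tested muscle members other than heavy chains it was -0.23. The risen genes Myh1, Myh4, Myh6 and Myh8 passed only with the help of the DKO libraries and so had to be higher there. Among the 9 muscle members that pass on the SKO libraries alone, 4 rose (Myh2, Myh3, Myh7 and Myh7b), against 1517 of 12700 such genes overall. Of the 14 members tested under 5 CPM in SKO oocytes, 7 were higher and 0 lower, where 32.6% of all tested genes at that level were higher and 1.04% lower. Of the 8 members at 5 to 50 CPM, Myh2 was higher and Myl12b lower, where 11.9% of all genes were higher and 6.69% lower. Of the 5 members at 50 CPM or more, 0 were called in either direction by edgeR, where 3.66% of all genes were higher and 17.1% lower. These counts are a description, since the family was taken up with this contrast known.

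Other genes of muscle were taken from textbook lists, and their counts stand beside 17.3% of all tested genes called higher and 7.41% called lower, or 32.6% higher among genes under 5 CPM in SKO oocytes. Of 26 tested genes of the sarcomere and its attachments, 6 rose and 0 fell, a count near that background, with a median log2 fold change of 0.52 beside 0.04 for all tested genes; DESeq2 called 7 higher and 0 lower, and at an unadjusted p under 0.05 there were 10 rises and 1 fall. The list has 42 genes, and 16 did not pass the filter. Synpo2, a Z-disc actin-bundling protein gene, reached 25 ± 2.13 CPM in DKO oocytes, against 0.49 ± 0.311 CPM in SKO oocytes (5.67, SE 0.46, adjusted p = 2.1e-05), and Pdlim3, an alpha-actinin-binding protein gene, reached 38.4 ± 9.38 CPM in DKO oocytes, against 1.69 ± 0.486 CPM in SKO oocytes (4.5, SE 0.32). Myot and Obsl1, which encode Z-disc myotilin and an obscurin-like adaptor, rose by 1.73 and 2.62. Synpo2 and Obsl1 passed the filter on low counts only with the help of the DKO libraries, so the filter favoured their rises. The counts of rises in this and the following lists include such genes. Csrp3, Lmod2, Xirp1 and Trim55 had no count in any library.

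Of 9 tested genes of excitation-contraction coupling, 4 rose and 0 fell by edgeR and likewise by DESeq2, with no fall at an unadjusted p under 0.05, where 17.3% of all tested genes rose and 7.41% fell. Cacna1c, the calcium channel subunit of heart, reached 6.67 ± 2.27 CPM in DKO oocytes, against 0.194 ± 0.232 CPM in SKO oocytes (5.11, SE 0.73, adjusted p = 0.000787). Ryr1, the calcium release channel of skeletal muscle, rose by 2.55, and Jph1 by 1.16. Cacna1c and Ryr1, with 1, 10 and 2 and with 19, 23 and 9 counts in SKO libraries, passed the filter only with the help of the DKO libraries. The filter therefore favoured their rises. Cacna1s, the calcium channel subunit of skeletal muscle, measured 25.9, 112 and 79.7 CPM in DKO libraries, against 34.6, 23.0 and 30.7 CPM in SKO libraries (1.30, SE 0.42, adjusted p = 0.0475). It passed the test although DKO replicate 1 lay within the SKO values. Of 9 tested smooth muscle contractile genes, 2 rose and 1 fell, close to the shares of all genes. Mylk, the kinase that phosphorylates the regulatory light chain, reached 13.5 ± 4.62 CPM in DKO oocytes, against 0.991 ± 0.0925 CPM in SKO oocytes (3.76, SE 0.38, adjusted p = 9.38e-05), Pgm5 rose by 2.68, and Cnn1 fell. Pgm5 likewise passed the filter only with the help of the DKO libraries.

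Of 16 tested regulators of muscle transcription, 9 rose and 1, Eya1, fell, with a median of 1.17, where 17.3% of all tested genes rose and 7.41% fell (32.6% and 1.04% under 5 CPM in SKO oocytes). Pax3, a paired-box factor of muscle progenitors, reached 10.6 ± 1.33 CPM in DKO oocytes, against 0.506 ± 0.389 CPM in SKO oocytes (4.35, SE 0.59, adjusted p = 0.000535). Pax3 passed the filter on low counts only with the help of the DKO libraries, so the filter favoured its rise. Gata4, a zinc-finger factor of heart and gonad, reached 130 ± 2.67 CPM in DKO oocytes, against 52.4 ± 4.78 CPM in SKO oocytes (1.31, SE 0.16, adjusted p = 0.000328). The myogenic factor genes Myod1, Myf6 and Myog, and Pax7, had no count in any library. Myf5, another myogenic factor gene of the list, had some counts and was not called in either direction. Of 48 tested regulators of nonmuscle actomyosin, 5 rose and 7 fell by edgeR, and DESeq2 called 5 higher and 10 lower, with a median of -0.01 and the shares of all genes at 17.3% higher and 7.41% lower. Ezr, which links actin to the membrane, reached 34.8 ± 4.32 CPM in DKO oocytes, against 2.0 ± 0.88 CPM in SKO oocytes (4.12, SE 0.35, adjusted p = 2.9e-05), and Rhob, Diaph2 and Zyx rose by 2.15, 3.76 and 1.84. The genes that fell were Myo10 by 1.41, Dapk3 by 1.25, Arpc3 by 0.76, Spire1 by 0.69, Rdx by 0.67, Kif23 by 0.59 and Diaph1 by 0.51, all on the log2 scale.

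Markers of other ovarian cells were read beside the same shares of all tested genes, 17.3% higher and 7.41% lower (32.6% and 1.04% under 5 CPM in SKO oocytes). Of 13 tested granulosa markers, 6 rose and 1 fell, and the list of 17 summed to 194 to 228 CPM in DKO libraries and 112 to 136 CPM in SKO libraries, with Ptx3 at 0. Its most abundant genes were Nr5a2, at 117 ± 15.5 CPM in DKO and 79.2 ± 9.98 CPM in SKO oocytes, Cyp19a1, at 17.0 ± 1.49 CPM in DKO and 30 ± 6.00 CPM in SKO oocytes, and Fshr, at 30.7 ± 2.54 CPM in DKO and 0.506 ± 0.0397 CPM in SKO oocytes. Of 11 tested theca, stroma and endothelium markers, 6 rose and 1 fell, and the list summed to 151 to 166 CPM in DKO libraries and 129 to 174 CPM in SKO libraries, with none at 0 in all libraries. Pecam1, an endothelial marker, averaged 61.0 ± 7.75 CPM in DKO oocytes, against 110 ± 17.3 CPM in SKO oocytes, and Cyp11a1, a steroidogenic enzyme of theca, averaged 36.9 ± 2.68 CPM in DKO oocytes, against 14.6 ± 2.76 CPM in SKO oocytes. Tek, another endothelial marker, averaged 32.8 ± 3.09 CPM in DKO oocytes, against 25.5 ± 4.35 CPM in SKO oocytes. Blood and immune markers summed to 4.35 to 5.87 CPM in DKO libraries and 2.96 to 4.87 CPM in SKO libraries, with Cd52, Hba-a1, Hbb-bs and C1qa at 0 and neither of the 2 tested, Cd68 and Itgam, called. The part of such cells in the heavy chain values was not tested.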

How the data were processed

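RNA-seq was analysed in 6 libraries of GV oocytes, 3 DKO and 3 SKO. Per the labels' protocols, RNA was amplified with the Ovation v2 kit before Illumina libraries were made, so reads are not independent molecules, and intervals and floors cover counting error only. The authors deposited raw read counts per Entrez gene, 1 column per library, with a gene length in bases. Per the submitters' processing notes, STAR 2.5.0a was used, and both GRCm38 and mm10 are listed as builds. Counter, annotation, strand and the treatment of multiply aligned reads: not given in the sources used here.

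Identifiers were matched to RefSeq genes of GRCm38 (24387 of 24421; the 34 others held at most 0.087% of any library's counts). Tests used edgeR 4.0.16 in R 4.3.3: filterByExpr (minimum count 10, minimum total 15), TMM scaling and the two-sided quasi-likelihood test of genotype with Benjamini-Hochberg adjustment over the 14845 genes kept, called at an adjusted p under 0.05. Fold changes are DKO over SKO on the log2 scale, and standard errors were derived from F and may be underestimated for genes of few counts. CPM used the TMM-scaled library sizes, on which 3 counts are 0.116 to 0.171 CPM. Per the labels, each library holds oocytes of 1 mouse; whether each came from a different mouse is not said, so p-values measure the spread between these libraries. The code was checked on simulated counts. Alternatives were DESeq2 1.42.0 (its test and its size factors), library totals, no filter, a minimum count of 30, each library left out and a replicate block.

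The members, classes, gene lists and the rule for named genes (every member, then up to 4 called genes of each list by smallest p, and the 3 most abundant tested genes of each marker list) were chosen with earlier results of these data known. Some genes that the rule names are not reported here. Exon overlaps and shared 50-base stretches were taken from GENCODE M21 on GRCm38. Replicate numbers are not stated to pair animals.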

Additional observations from a re-analysis of the deposited data

How the results depend on the processing

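Of the 9 called members, 7 kept their call in each of the 12 alternative fits that tested them, the exceptions being Myh8 and Myl12b. The count of muscle members called higher was 7 with a minimum count of 30, 9 with no filter and 7 to 9 with 1 library left out. Muscle members called lower were 0 in most fits, 1 with the replicate block (Myh11, adjusted p = 0.041) and 0 to 1 with 1 library left out. Nonmuscle members called higher were 1 (Myh14) with library totals, with the DESeq2 Wald test and with the minimum count of 30, and 0 to 1 with 1 library left out. Nonmuscle members called lower were 0 with library totals and 0 with the replicate block, where Myl12b had an adjusted p of 0.0567, and 0 to 4 with 1 library left out. Shared members called higher were 0 to 1 with 1 library left out. Over all genes, the count called lower was 596 with library totals, against 1100, and 434 to 1501 with 1 library left out. Library totals gave 2905 genes called higher, against 2567.

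The median log2 fold change of tested muscle members was 1.83 with no filter, 2.75 with the minimum count of 30 and 1.89 to 2.54 with 1 library left out, against 2.22. Signs changed for 6 members that were not called. With 1 library left out, Actn3 was between -0.27 (DKO replicate 2) and 0.04 (DKO replicate 1), Myh10 between -0.36 (DKO replicate 3) and 0.33 (DKO replicate 2), Myl6b between -0.85 and 0.03, Tpm3 between -0.12 and 0.19, Tpm4 between -0.03 and 0.7, and Tnnt1 between -0.04 and 1.19. Myh10 was -0.07 without SKO replicate 2, Actn3 was 0.03 with library totals and Tpm3 was -0.01 with no filter. The causes were not tested. Same-numbered libraries deviated from their group means with correlations of 0.139, 0.0773 and 0.0479 (other pairings -0.084 to 0.00678), each library agreeing best with its own number. This is a hint from the data and not part of the design, and apart from Myh11 and Myl12b the replicate block changed no member's call; it gave 2651 genes higher and 1364 lower. The filter on low counts left 19 members untested.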
